A study of Mus musculus with 6 samples.

Results

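The genes described are 10 that carry growth signals through the kinase mTOR: Mtor itself, the complex subunits Rptor and Rictor, the upstream kinase Akt1, the inhibitors Tsc1 and Tsc2, the activator Rheb, the downstream kinases Rps6kb1 and Rps6kb2 and the translation repressor Eif4ebp1. They were chosen by name. Their regions are the open chromatin regions whose summit (the strongest point of a peak) lay in the gene body or within 20 kb of it. These were 102 of the 99359 regions obtained by merging the peaks of 6 libraries, and they were divided by location. An own promoter region had its summit within 1 kb of an annotated start of the gene (11 regions), a region at the promoter of another gene lay that close to a neighbour's start (15 regions), and the remaining 76 were distal. The outermost summit inside the limit was 19350 bp from Tsc1 and ranked at 11.6 in UNx 1 and in no other list. The closest one outside it was 21594 bp from Tsc2 and ranked between 55.9 and 75.8. At the promoter limit, a summit 927 bp from an internal Tsc1 start was inside with ranks of 0 to 26.0. An Akt1 summit at 1142 bp, seen in UNx 2 alone at 2.65, and a Tsc1 summit at 1146 bp, with ranks of 0 to 29.3, were outside.

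The assay was ATAC-seq, in which a transposase cuts accessible DNA and tags the cut ends for sequencing. Wild-type male C57BL/6 mice (Taconic) aged 7 weeks had either a sham operation (Sham) or the surgical removal of 1 kidney (unilateral nephrectomy, UNx), and kidney tissue was taken at 24 h. Each of the 3 Sham and 3 UNx libraries was made from 3 proximal tubule segments dissected by hand and labelled S1, the stretch that follows the glomerulus. The labels do not say whether libraries of one operation came from different mice, so p-values measure the spread between these libraries, which may be technical. The question is whether accessibility around growth signalling genes differs between the operations after the loss of a kidney.

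mTOR is a kinase that works in a pair of complexes. Complex 1, with the scaffold protein Rptor, is switched on at the lysosome by the GTPase Rheb when amino acids and growth factors are present, and it drives protein synthesis and cell growth. Complex 2, with Rictor, phosphorylates Akt1, and Akt1 in turn lifts the brake that Tsc1 and Tsc2 place on Rheb. The pathway is known for its part in the enlargement of the remaining kidney, in which proximal tubule cells grow.

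Reference sequences of 4 regions are shown: the promoter of Mtor, which ranked near the top of all lists, and the 3 distal regions with the smallest p. Each holds the summit and 50 bases on either side, from the NCBI RefSeq copy of GRCm38, on the plus strand, 5′ to 3′. Capitals mark a match to one of the strings searched.
Mtor promoter, chr4:148448510-148448610: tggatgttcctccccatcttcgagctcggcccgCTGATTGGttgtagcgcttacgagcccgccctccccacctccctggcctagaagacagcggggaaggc
Rptor intron, chr11:119731597-119731697: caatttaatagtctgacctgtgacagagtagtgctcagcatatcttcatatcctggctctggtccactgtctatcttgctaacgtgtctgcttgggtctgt
Akt1 upstream, chr12:112675436-112675536: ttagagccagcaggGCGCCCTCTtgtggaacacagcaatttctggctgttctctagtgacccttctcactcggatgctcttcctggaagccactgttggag
Mtor intron, chr4:148515458-148515558: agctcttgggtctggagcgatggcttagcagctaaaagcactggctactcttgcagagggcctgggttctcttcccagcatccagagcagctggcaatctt
The Mtor promoter match is to CCAATNNG, a string bound by the trimer NF-Y, on the minus strand. The Akt1 match is to AGNGGGCGC, part of the site of the insulator protein CTCF, also on the minus strand. That string was added after the Akt1 sequence had been read. Neither match overlapped another string, and the Rptor and Mtor intron windows held none of the 12 strings.

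Since the deposited lists hold no read counts, only the 77355 strongest peaks per library were kept, and these were ranked as percentiles by the authors' −log10 q, with 100 for the strongest and 0 for a region outside those peaks. A rank orders regions by statistical strength within a list. It is not accessibility per base, and a wide region can rank higher than a narrow one. Differences are UNx minus Sham in percentile points and were tested with limma with Benjamini-Hochberg adjustment over the 74781 regions present in at least 3 lists. In bulk tubule segments, fewer cells with an open region and less cutting per cell cannot be told apart.

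The depth of the libraries is unknown. The deposited lists held 77355 peaks in Sham 2, the shortest, and 93583 to 100999 in the other 5 libraries, with a median −log10 q from 12.1 in Sham 2 to 26.5 in UNx 3. S1 markers such as the transporter genes Slc5a2 and Slc34a1 had a promoter peak in all 6 lists for 12 of 12 genes, with summed ranks of 999 to 1014 in Sham and 1004 to 1013 in UNx libraries. Among them, Lrp2 (95.5 to 96.7 in Sham, 91.1 to 94.1 in UNx libraries) and Cubn (88.3 to 95.0, 79.1 to 86.8) were lower with groups apart. No S1 marker was higher with groups apart. For later proximal segments, 4 of 7 markers were in all lists (Slc7a13 and Slc22a13 in none), and the sums were 352 to 391 in Sham and 323 to 345 in UNx libraries. Markers of the loop, distal tubule and collecting duct were in all lists for 5 of 8 genes (Slc12a3, Aqp2 and Atp6v1g3 in none), with sums of 343 to 357 in Sham and 302 to 328 in UNx libraries. For podocytes and endothelium the figure was 4 of 8, with sums of 144 to 157 and 121 to 141. For stroma it was 2 of 5 (Pdgfrb, Acta2 and Tagln in none), with sums of 147 to 162 and 137 to 156. The 5 immune markers had no promoter peak in any list. The sums for later proximal, distal and podocyte or endothelial markers did not overlap between the operations and were lower after UNx, and their part in the results given here was not tested. Single markers of these lists went both ways with groups apart, a pattern found in 20.2% of all tested promoter regions of protein-coding genes. Slc22a7 (59.4 to 72.6 in Sham, 40.9 to 58.6 in UNx libraries), Slc7a12 (8.96 to 46.1, 0 to 2.81), Slc12a1, Scnn1g and Flt1 were lower. The stromal marker Col1a1 (68.9 to 69.4, 54.1 to 66.1) was also lower. Slc16a9 (84.5 to 88.9, 92.1 to 95.7), Aadat (89.8 to 94.0, 96.8 to 97.8) and Wt1 (38.9 to 40.2, 48.3 to 64.4) were higher.

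All 10 genes had an own promoter region in all 6 lists, so none of these promoters appeared or was lost with the operation. Their mean ranks ran from 97.4 for Rps6kb1 to 46.7 for Akt1, and no own promoter region passed the test. Of the 11 own promoter regions, 0 had an adjusted p under 0.05 in limma, and 0 had an unadjusted p under 0.05. Among all 12066 tested promoter regions of protein-coding genes, 0.423% passed the adjusted threshold and 13.5% the unadjusted one. The median difference was 0.57 percentile points over the 11, with 7 higher and 4 lower, beside −0.18 over all promoter regions, of which 47.3% were higher.

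The promoter of Mtor, with its summit 51 bp before the start, ranked at 94.7, 92.6 and 94.5 in Sham 1, 2 and 3 and at 91.9, 94.4 and 97.0 in UNx 1, 2 and 3. The lowest and the highest value were both from UNx libraries, and the groups overlapped. Means were 94.0 ± 1.17 (Sham) and 94.4 ± 2.55 (UNx; SD, n = 3 each) and differed by 0.45 ± 1.75 (SE; limma adjusted p = 0.922). The authors' fold enrichment at this summit was 10.3, 8.64 and 10.1 in Sham and 9.07, 10.1 and 10.7 in UNx lists, also overlapping. The region ranked above 76.1% of all promoter regions. The sign of its difference is not settled, as it was negative under 6 of 17 alternatives.

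Of the complex subunits, the Rptor promoter ranked at 84.7, 86.3 and 90.2 in Sham and at 65.2, 88.8 and 84.9 in UNx libraries. The low value was that of UNx 1 alone, and the other 5 values lay within 6 points (87.1 ± 2.81 and 79.7 ± 12.6, SD, n = 3 each; limma adjusted p = 0.401). The Rictor promoter ranked at 56.6, 75.7 and 69.5 in Sham and at 73.6, 58.7 and 71.2 in UNx libraries. Each operation had 1 low library, Sham 1 and UNx 2, and the means were 67.3 ± 9.75 and 67.8 ± 7.98 (SD, n = 3 each; limma adjusted p = 0.976).

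Upstream, the promoter of Akt1, the kinase that relays insulin and growth factor signals, was the weakest of the 10. It ranked at 38.2, 67.8 and 55.9 in Sham and at 31.6, 30.4 and 56.0 in UNx libraries. The 2 lowest values were from UNx 1 and UNx 2, but Sham 1 was lower than UNx 3 (54.0 ± 14.9 and 39.3 ± 14.5, SD, n = 3 each; limma adjusted p = 0.446). The promoters of the inhibitors, whose proteins form the complex that keeps Rheb inactive, differed from each other in spread. Tsc1 ranked at 80.6, 82.5 and 82.6 in Sham and at 77.5, 64.0 and 86.1 in UNx libraries (limma adjusted p = 0.531). Tsc2 ranked at 85.9, 87.3 and 86.5 in Sham and at 87.9, 86.5 and 92.1 in UNx libraries (limma adjusted p = 0.659). In both genes the 3 Sham values lay within 2 points and the UNx values were wider. The Tsc2 summit lay 16 bp before its start and 36 bp before that of Nthl1, a DNA repair gene read in the other direction, so the rank belongs to both genes.

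Rheb, the GTPase that activates complex 1, had a promoter rank of 94.5, 96.4 and 93.9 in Sham and of 96.9, 96.0 and 97.4 in UNx libraries. Only Sham 2 lay above the lowest UNx value (94.9 ± 1.30 and 96.8 ± 0.739, SD, n = 3 each; limma adjusted p = 0.527).

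Among the substrates of complex 1, Rps6kb1, a kinase that phosphorylates ribosomal protein S6, had the promoter of highest rank, at 97.6, 96.2 and 97.3 in Sham and 97.1, 98.3 and 97.5 in UNx libraries (limma adjusted p = 0.854). All 6 values lay within 3 points, and the promoter is shared with Tubd1, a tubulin gene whose start is 192 bp from the summit. The related kinase Rps6kb2 ranked at 76.5, 84.9 and 87.6 in Sham and at 78.1, 76.6 and 80.7 in UNx libraries (limma adjusted p = 0.557), with Sham 1 the lowest of the 6. Eif4ebp1, which holds back the start of translation until complex 1 phosphorylates it, ranked at 71.7, 65.6 and 73.5 in Sham and at 73.7, 84.7 and 80.4 in UNx libraries. It was the 1 own promoter region of 11 whose groups did not overlap, with a gap of less than 1 point between Sham 3 and UNx 1, against 20.2% of all promoter regions. Means were 70.3 ± 4.17 (Sham) and 79.6 ± 5.56 (UNx; SD, n = 3 each), and the gap of 9.34 ± 4.73 was not past the threshold (SE; limma adjusted p = 0.299).

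By mean rank over the 6 lists the order was Rps6kb1 (97.4), Rheb (95.8), Mtor (94.2), Tsc2 (87.7), Rptor (83.4), Rps6kb2 (80.7), Tsc1 (78.9), Eif4ebp1 (74.9), Rictor (67.5) and Akt1 (46.7). Every neighbouring pair in that order had overlapping ranges. Mtor ranked above Tsc2, and Rictor above Akt1, in 6 of 6 libraries. The other pairs kept their order in 4 or 5. The regions were 949 bp (Rps6kb2) to 1885 bp (Rictor) wide, and Akt1, the lowest in rank, had the highest GC content of the 10, at 72.5%.

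**Figure D1:**
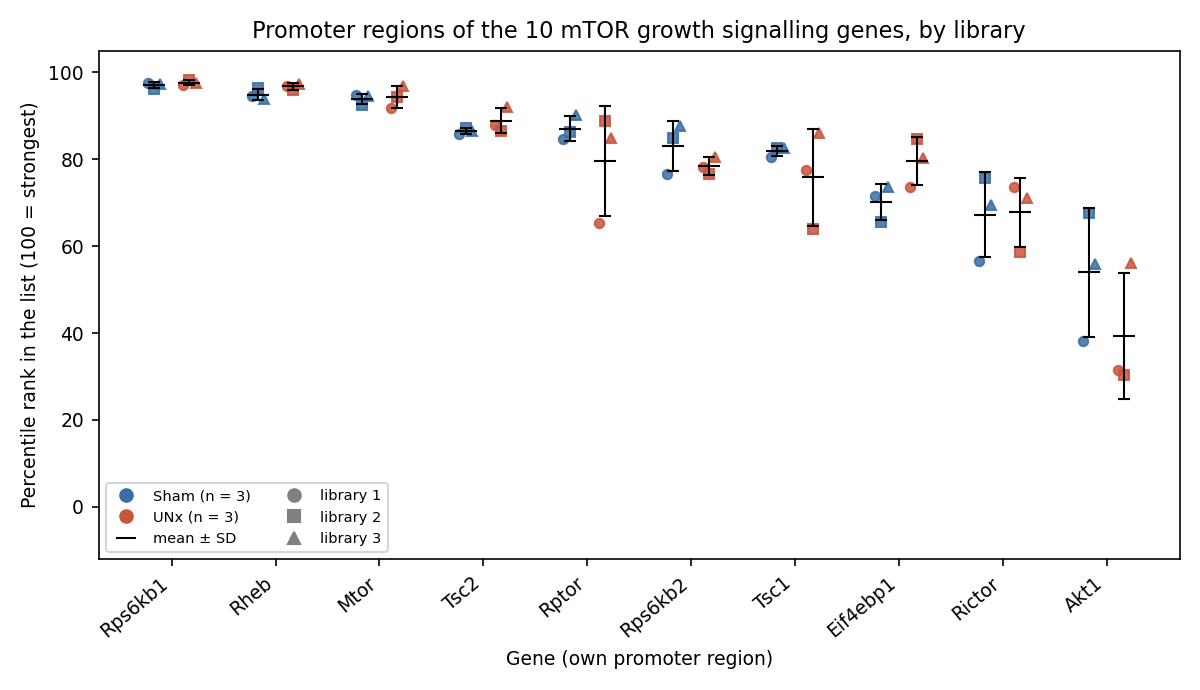
Percentile rank (vertical axis, 100 is the strongest peak of a list) of the own promoter region of each of the 10 genes (horizontal axis, in order of mean rank); points are libraries, blue for Sham and red for UNx, and bars are mean ± SD over 3 libraries. Rps6kb1, Rheb and Mtor lay above 91 in every library, Akt1 spread from 30.4 to 67.8, and the groups were apart only for Eif4ebp1.

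Of the 102 regions, 72 were tested, 48 (47.1%) were in all 6 lists and 20 (19.6%) in 1 list, beside 53.4% and 16.3% of all merged regions. Regions per list numbered 69, 70 and 72 in Sham and 68, 70 and 74 in UNx libraries, which overlap. With all deposited peaks, the same regions were found 84, 70 and 84 times in Sham and 82, 83 and 81 times in UNx lists, the low value being that of the shortest list. Not 1 of the 102 regions separated the operations by presence, that is, by being listed in all 3 libraries of a group and absent from the other 3, a pattern found in 1.98% of all merged regions. The 20 regions in a single list were weak, with a median rank of 8.91 and a highest of 27.3, and 6 each came from Sham 2 and UNx 3.

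In limma, 0 of the 72 tested regions had an adjusted p under 0.05, against 0.788% of all 74781 tested regions. At an unadjusted p under 0.05 there were 8 (11.1%), against 18.6%. Of the 8, 2 were higher after UNx and 6 lower, while over all regions 9.08% were higher and 9.5% lower. The groups did not overlap in 13 regions (18.1%), 5 higher and 8 lower, against 23.7% of all regions, 12.0% higher and 11.7% lower. These shares were below those over all regions for both measures. The median difference was −0.27 over the 72, with 35 higher, and −0.01 over all tested regions, with 49.9% higher.

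**Figure D2:**
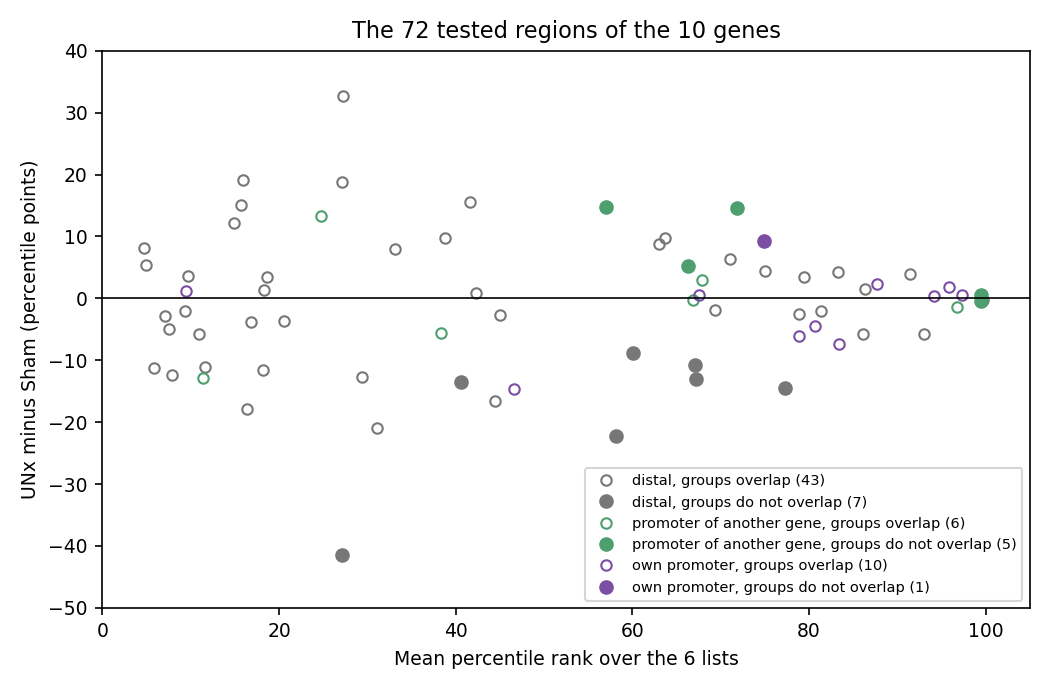
Difference in percentile rank, UNx minus Sham (vertical axis, percentile points), against the mean rank over the 6 lists (horizontal axis) for the 72 tested regions, coloured by location; filled points are the 13 regions whose groups did not overlap. The 7 filled distal points all lie below 0, and 4 of the 5 filled points at promoters of other genes lie above it.

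Distal regions held 7 of the 8 with an unadjusted p under 0.05. Of the 76 distal regions, 50 had their summit in an intron, 10 upstream, 13 downstream, 2 in a UTR and 1 in a coding exon. They were narrower than promoters (median 403 bp, against 1375 bp for the own promoters), lower in GC (50.4%, against 60.1%) and lower in rank (median of the mean rank 15.8, against 80.7). Their ranks also varied more between libraries. Among tested regions, the median SD was 7.22 in Sham and 9.39 in UNx libraries for distal regions, and 2.81 and 5.56 for own promoters. Of the 50 tested distal regions, 7 (14.0%) had an unadjusted p under 0.05, against 18.6% of all tested regions. Of these, 1 was higher and 6 (12.0% of the 50) were lower, and over all tested regions 9.5% were lower. The groups did not overlap in 7 (14.0%), against 23.7% of all tested regions, so both totals were below those over all regions. All 7 were lower after UNx, and over all tested regions 11.7% were apart and lower. The lower shares, resting on 6 and 7 regions, were thus near those over all regions for both measures. No share over all distal regions was taken, and a lean to lower ranks was not tested. The 7 regions whose groups were apart were 3 at Rptor, 2 at Akt1 and 1 each at Mtor and Rictor.

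The distal region of smallest p lay in an intron of Rptor (GRCm38 chr11:119731238-119731887, 128498 bp after the start). It ranked at 58.6, 41.1 and 44.0 in Sham and at 0, 9.53 and 9.79 in UNx libraries. The lowest Sham value was more than 31 points above the highest UNx value. Means were 47.9 ± 9.39 (Sham) and 6.44 ± 5.58 (UNx; SD, n = 3 each), and the difference of −41.5 ± 10.7 was not past the threshold (SE; limma adjusted p = 0.0663). The peak was not lost after UNx. It was in all 3 deposited UNx lists, with a fold enrichment of 3.32, 5.07 and 5.22, beside 10.2, 5.83 and 8.40 in the Sham lists, so these too did not overlap. With array weights, which give noisier libraries less weight, it was the only one of these regions called (limma adjusted p = 0.0385, the lowest over its alternatives, of which the highest was 0.208).

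A region 1210 bp before the start of Akt1 (chr12:112675173-112675684) ranked at 86.5, 85.2 and 82.0 in Sham and at 75.4, 70.3 and 64.4 in UNx libraries. All 3 UNx values were below all 3 Sham values, by at least 6 points (84.6 ± 2.30 and 70.0 ± 5.48, SD, n = 3 each). The difference was −14.6 ± 4.31 (SE; limma adjusted p = 0.0955). It is the region whose sequence holds AGNGGGCGC. It ranked above the promoter of Akt1 in 6 of 6 libraries.

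In Mtor, an intron region 66883 bp after the start (chr4:148515119-148515698) ranked at 75.6, 65.4 and 66.6 in Sham and at 47.3, 46.7 and 47.1 in UNx libraries. The UNx values lay within 1 point of each other and more than 18 points below the lowest Sham value (69.2 ± 5.57 and 47.0 ± 0.321, SD, n = 3 each; difference −22.2 ± 6.73, SE; limma adjusted p = 0.101). The strongest distal region of Mtor (chr4:148473332-148474140, in an intron 25080 bp after the start) ranked at 94.4, 97.6 and 95.5 in Sham and at 83.4, 95.4 and 91.5 in UNx libraries. It ranked about as high as the promoter. The groups overlapped, with UNx 1 far below the other libraries (limma adjusted p = 0.212). Mtor had 21 regions in all and Rptor 24, the most of the 10 genes, which also have the longest gene bodies of the 10.

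**Figure D3:**
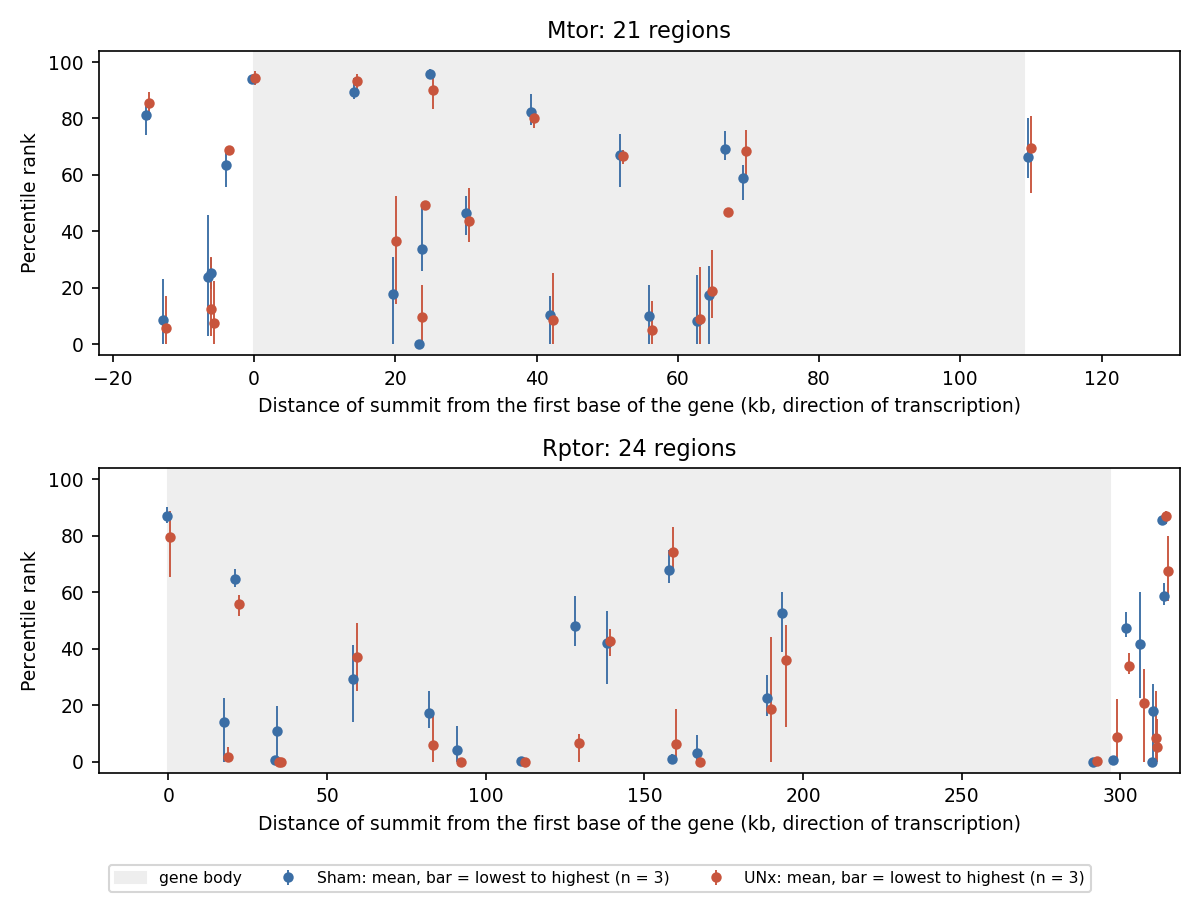
Percentile rank (vertical axis) of each region of Mtor and of Rptor by the distance of its summit from the first base of the gene (horizontal axis, kb); points are the means of the 3 Sham (blue) or 3 UNx (red) libraries, bars run from the lowest to the highest library, and the gene body is shaded. Among others, Sham and UNx bars are apart at the Mtor region near 66.9 kb and the Rptor region near 128.5 kb, and overlap at both promoters.

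There were 3 other distal regions at an unadjusted p under 0.05. Rictor had an intron region (chr15:6749000-6749777) at 80.0, 71.5 and 69.6 in Sham and 65.0, 66.3 and 50.6 in UNx libraries, with no overlap (limma adjusted p = 0.255). Rps6kb1 had its strongest distal region in an intron (chr11:86527392-86527970) at 89.7, 92.5 and 85.0 in Sham and 82.0, 82.7 and 85.0 in UNx libraries, which overlapped by less than 1 point at Sham 3 and UNx 3 (limma adjusted p = 0.267). The 1 higher region lay 8367 bp before Tsc1 (chr2:28632528-28633035). It was absent from the ranked peaks of Sham 1 and Sham 3 and ranked at 32.8 in Sham 2, and it ranked at 59.2, 28.1 and 43.4 in UNx libraries (limma adjusted p = 0.165). Sham 2 was above UNx 2, so the groups overlapped, and all 3 deposited Sham lists held the peak.

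**Figure D4:**
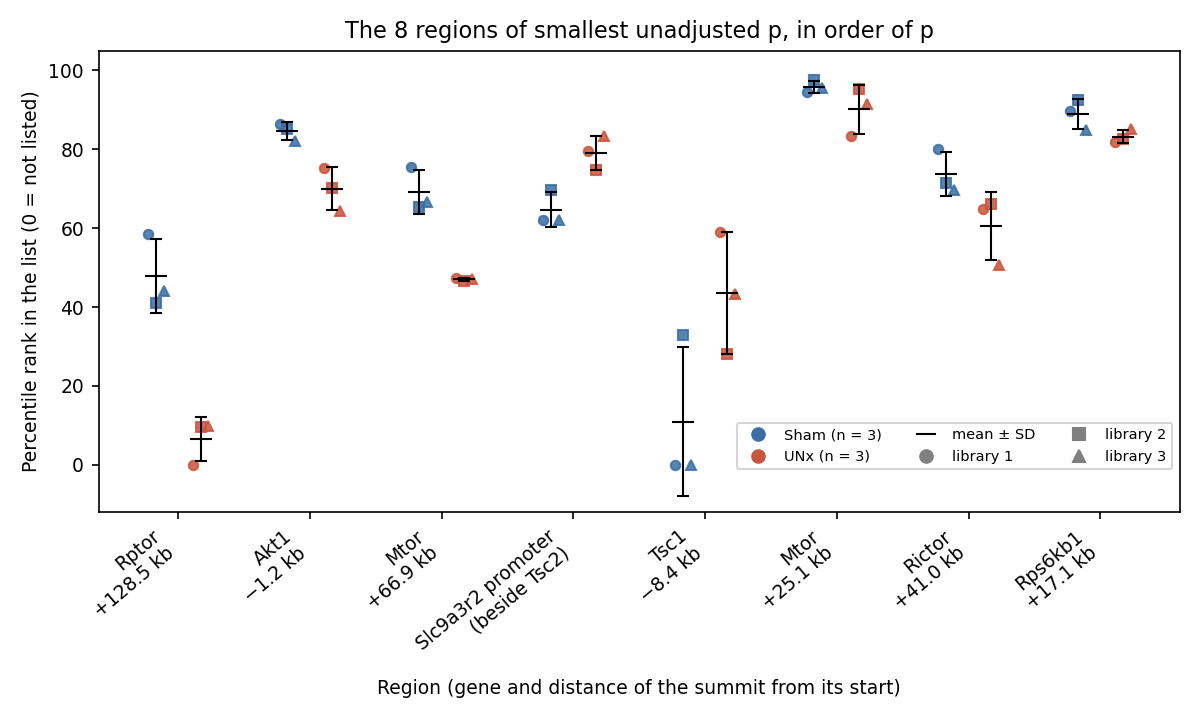
Percentile rank (vertical axis, 0 where the region is outside the ranked peaks) of the 8 regions of smallest unadjusted p (horizontal axis, in order of p, with the distance from the start of the gene); points are libraries and bars are mean ± SD over 3 libraries. The Sham and UNx points are apart in the first 4 and in the Rictor region, and 2 of the 8 lie higher after UNx.

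The strongest distal regions of the other genes were no closer to the threshold. That of Rps6kb2 (chr19:4169317-4170191) was the strongest region of the whole set, at 99.7 to 99.98 in Sham and 99.2 to 99.8 in UNx libraries, and its summit lay 47 bp from the start of the gene model Gm17552. That of Akt1 (chr12:112692908-112694059), at 70.5 to 87.4 in Sham and 71.7 to 82.9 in UNx libraries, lay 19 bp from the start of the gene model Gm30238. Neither gene model is annotated as protein-coding. In Rptor the strongest distal region lay downstream at 83.8 to 86.6 in Sham and 84.3 to 88.8 in UNx libraries, and in Tsc1 it lay in a coding exon at 61.5 to 86.8 and 70.0 to 91.9. Rictor had one in an intron at 63.2 to 74.5 and 65.4 to 73.6. Rheb (15.4 to 44.1 and 28.4 to 55.4) and Eif4ebp1 (31.1 to 42.5 and 6.87 to 34.9) had only weak distal regions. Tsc2, in spite of a strong promoter, had 2 distal regions, each in 1 or 2 lists, and none was tested. Its stronger one was in Sham 3 and UNx 2 alone, at 37.1 and 19.5. In all of these genes the groups overlapped.

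Of the 15 regions at promoters of neighbouring genes, 11 were tested. Of these, 1 had an unadjusted p under 0.05, beside 13.5% of all promoter regions. Groups did not overlap in 5, 4 of them higher after UNx, beside 20.2% of all promoter regions, a share not split by direction. The region at an unadjusted p under 0.05 was the promoter of Slc9a3r2 (chr17:24649623-24650789), a gene 17650 bp before Tsc2 that encodes a scaffold protein for sodium-hydrogen exchangers. It ranked at 62.0, 69.8 and 62.2 in Sham and at 79.5, 74.7 and 83.3 in UNx libraries (64.6 ± 4.45 and 79.2 ± 4.28, SD, n = 3 each). The highest Sham value was about 5 points below the lowest UNx value, and the difference of 14.5 ± 5.04 was not past the threshold (SE; limma adjusted p = 0.140). Zbtb42, beside Akt1, ranked at 52.4, 43.9 and 52.7 in Sham and at 71.3, 57.5 and 64.6 in UNx libraries (limma adjusted p = 0.271), opposite in direction to the Akt1 upstream region some 3 kb away. Of the others, Siva1 and Rnft1, chosen for mention because their groups did not overlap, differed little. Siva1 beside Akt1 had a highest Sham value of 99.5 and a lowest UNx value of 99.6, and Rnft1 beside Rps6kb1, the 1 that was lower, had a lowest Sham value of 99.7 and a highest UNx value of 99.6.

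The summit and 50 bases on either side were searched on both strands for 12 strings of transcription factor families, with N for any base. Among the own promoters of the 10 genes, CCAATNNG (NF-Y) was in Mtor and Rptor, and it was in 10.3% of all promoter regions and 3.60% of all merged regions. The E-box CACGTG, bound by factors such as TFEB, was in Tsc1 (3.42% of promoter regions). CCGGAAGT (ETS factors) was in Tsc2 (3.88%), GCATGCGC (NRF1) in Rps6kb1 (1.87%) and AAGATGGC (YY1) in Rps6kb2 (1.14%). AGGNGGC (CTCF core) was in Tsc1, Rictor and Eif4ebp1 (21.7%). GGGCGGGG (SP and KLF factors, 17.9%), TGACGTCA (CREB and ATF, 1.61%), TGANTCA (AP-1, 1.48%), CAAAGTCC (HNF4, 0.806%) and TAATNATTA (HNF1, 0.213%) were in none of them. In the Tsc1 promoter 2 strings matched, at separate positions. Among the 76 distal regions, CAAAGTCC was in 3, a pair in Mtor and 1 in Rptor, and it was in 2.76% of all merged regions. None of the 3 had an unadjusted p under 0.05. AGNGGGCGC was in 3 distal regions, at Akt1, Rptor and Eif4ebp1, with differences of −14.6, −20.9 and 3.38, and in 2.40% of all merged regions and 3.12% of promoter regions. Over the whole series, 1426 of the 1966 tested regions with this string (72.5%) were lower after UNx, with a median difference of −4.83. Over all tested regions the median was −0.01, with 49.9% higher. Other strings were shifted too, in both directions. With AAGATGGC, 371 of 542 tested regions were lower (median −3.59), and with CAAAGTCC, 803 of 2163 were lower (median 3.44). A lower rank with AGNGGGCGC is thus not particular to the regions of these genes, nor is a shift particular to that string. The Rptor and Eif4ebp1 windows also held AGGNGGC. A match describes the letters and not the binding of a factor.

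The rest of the pathway was read at promoters, with 1 region for each of 81 further genes in 5 lists. Of these, 79 had a tested promoter region, all in 6 of 6 lists, and Stk11 and Atf4 had none. limma called 1 of the 79 (1.27%, against 0.423% of all promoter regions), Mlst8, which encodes a subunit common to both mTOR complexes. At an unadjusted p under 0.05 there were 12 (15.2%), 1 higher and 11 lower, against 13.5% of all promoter regions, 5.88% higher and 7.66% lower. Groups did not overlap in 17 (21.5%), close to the 20.2% of all promoter regions. Of the 17, 4 were higher and 13 lower. This split was not taken over all promoter regions, so a lean of the pathway cannot be read from it. The median difference was −0.53, with 34 of 79 higher, beside −0.18 and 47.3% over all promoter regions.

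The Mlst8 promoter ranked at 95.2, 93.0 and 96.0 in Sham and at 84.8, 84.3 and 86.1 in UNx libraries. All 3 UNx values were more than 6 points below all 3 Sham values, and each group was tight. Its rank fell by 9.69 percentile points, from 94.7 ± 1.58 to 85.0 ± 0.950 (SD, n = 3 each; SE 2.10; limma adjusted p = 0.0416). The call was lost without any 1 of the 6 libraries (limma adjusted p = 0.0697 without UNx 2 to 0.182 without Sham 3) and with the replicate number as a block (0.0767), and it was also lost with peaks ordered by fold enrichment (0.200, the highest), all deposited peaks, windows around summits, only the 20000 strongest peaks, no filter on lists, a plain variance model and GC correction. It held under 2 of the 17 alternatives, normal scores (0.0381) and array weights (0.0229). The difference kept its sign under all 17 alternatives.

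In the list of complex subunits and assembly factors, 1 of 9 was lower at an unadjusted p under 0.05, Mlst8, and Mapkap1, a complex 2 subunit, was the 1 whose groups were apart with higher values after UNx (93.0 to 95.8 and 96.1 to 98.6; limma adjusted p = 0.327). For this list and those below, the shares over all promoter regions at that p were 5.88% higher and 7.66% lower, and no list was tested as a set. In the list of receptors and the PI3K arm, 0 of 12 were higher and 3 lower. Among these were Irs2, an adaptor of the insulin receptor, at 82.4, 77.1 and 77.7 in Sham and 76.6, 59.5 and 65.5 in UNx libraries (limma adjusted p = 0.233), and Insr, the receptor itself (limma adjusted p = 0.263). In lysosomal amino acid sensing, 0 of 29 were higher and 3 lower. These were Depdc5 (limma adjusted p = 0.0954), Nprl3 and Seh1l, whose products belong to the GATOR complexes. Genes whose products promote the pathway and genes whose products restrain it were both among the lower ones.

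Among brakes and energy or stress inputs, 1 of 10 was higher and 1 lower. Ddit4l, an inhibitor of complex 1, ranked at 81.9, 82.0 and 77.9 in Sham and at 87.6, 87.2 and 88.1 in UNx libraries, with the groups apart (limma adjusted p = 0.207). The lower one was Cab39. Among downstream effectors, 0 of 19 were higher and 3 lower. Ulk1, the kinase that starts autophagy and is held in check by complex 1, ranked at 98.2, 98.1 and 99.3 in Sham and at 89.2, 89.9 and 95.2 in UNx libraries, again with the groups apart (limma adjusted p = 0.0598, and from 0.0133 to 0.363 under the alternatives). The others were Eif4b and Lpin1. Lamtor5, of the lysosomal scaffold, had the next smallest p among higher promoters, at 92.2, 86.5 and 89.1 in Sham and 94.6, 90.5 and 96.2 in UNx libraries, which overlapped (limma adjusted p = 0.276).

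**Figure D5:**
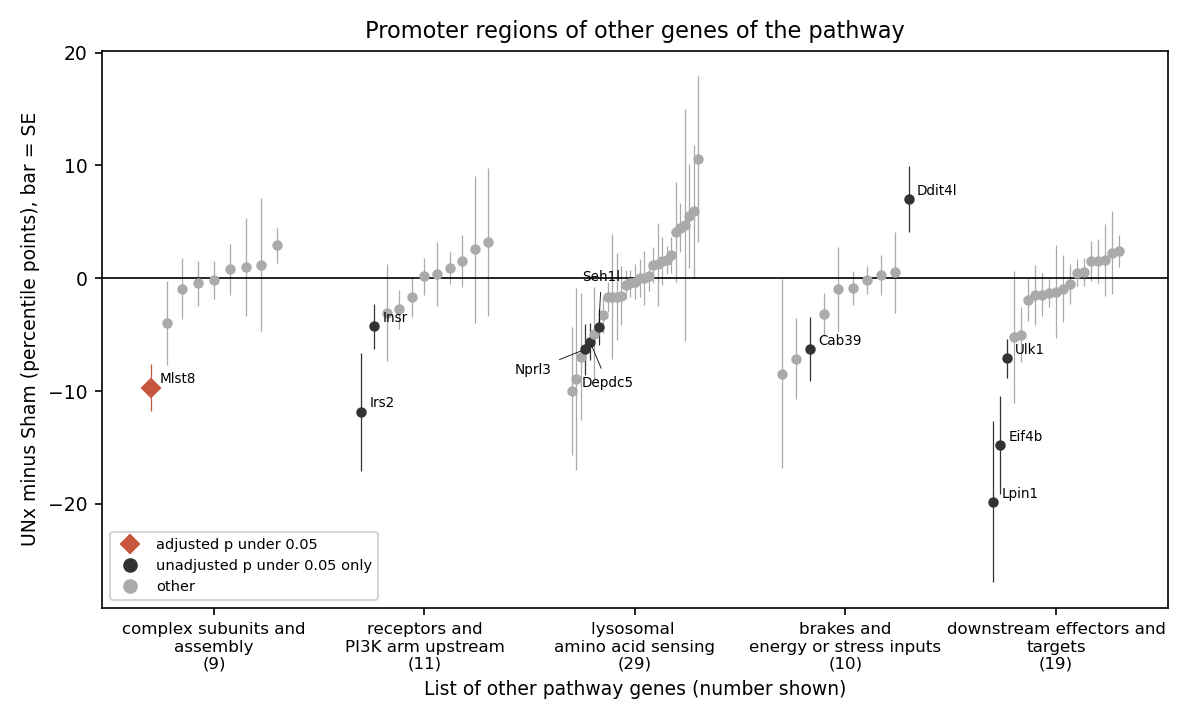
Difference in percentile rank, UNx minus Sham (vertical axis, percentile points, bars are the SE), of the promoter region of 78 of the 79 tested further pathway genes in 5 lists (horizontal axis, number shown in brackets). The diamond is Mlst8, the 1 called gene; 10 of the 11 named genes lie below 0 and Ddit4l lies above it.

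The promoters whose ranks over the 6 libraries were nearest to those of the Mtor promoter were Flcn (Euclidean distance 3.65 percentile points), Eif4ebp2 (3.68) and Prkag1 (4.66). Flcn ranked between 92.0 and 96.0, Eif4ebp2 between 90.5 and 97.0 and Prkag1 between 92.7 and 98.2, beside 91.9 to 97.0 for Mtor. The distance mainly reads how high a promoter ranks, and these 3 were the nearest of 79.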

How the data were processed

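Chromatin accessibility was measured by ATAC-seq in 6 libraries, 3 Sham and 3 UNx, grouped by their labels. Per the submitters' processing notes, cutadapt 3.4, Bowtie, SAMtools, Picard and MACS2 2.2.7.1 were used with the build mm10. The authors deposited 1 filtered narrowPeak list per library, with peaks called in each library on its own. The filter is not given in the sources used here. The deposited columns are a display score, a fold enrichment at the summit (a ratio to the local background) and the −log10 p and −log10 q of each peak, all the authors' values. The −log10 p and −log10 q grow with depth, which is unknown, so values were compared as ranks within lists and no interval that needs counts is given. No interval ran past a GRCm38 (mm10) chromosome end.

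Summits sharing an interval were taken as 1 peak at the strongest of them, and scaffolds outside the main chromosomes were left out. Lists were cut to 77355 peaks, intervals overlapping by at least 1 bp were merged, and regions in at least 3 lists were tested in R 4.3.3 by limma 3.58.1 (two-sided, eBayes with a robust mean-variance trend, Benjamini-Hochberg adjustment, threshold 0.05). Genes were from GENCODE M21. A gene's promoter region was the one of highest mean rank within 1 kb of a start. The limma step was tested on data drawn with known changes.

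Members, lists, strings and tests were chosen with earlier results of these data known. By rule, the text names the 10 own promoters and strongest distal regions, called regions, the 8 regions of smallest p, the 2 pathway promoters of smallest p in each direction and the 3 nearest the Mtor promoter. Some genes counted are not reported here. Other genes are named to account for small counts and were chosen after their values were seen. Other settings tried were the 20000 strongest peaks, all deposited peaks, a −log10 q of at least 5, ranking by fold enrichment, 500 bp windows, normal scores, no filter on lists, a plain variance model, the replicate number as a block, array weights, GC-corrected ranks, other distances to genes and leaving out each library.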

Additional observations from a re-analysis of the deposited data

How the results depend on the processing

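The 589 regions called over all tested became 22 with all deposited peaks, 2 with the 20000 strongest peaks, 3 with ranking by fold enrichment, 284 with windows around summits, 1583 with normal scores, 2 with no filter on lists, 1452 with array weights and 2 with GC-corrected ranks, and 4 to 76 when 1 library was left out. With the replicate number as a block the count was 56, and 0 with GC correction as well. Libraries with the same number did not deviate together (r of deviations from group means 0.00819, −0.100 and −0.0496). The labels do not say whether the numbers pair the samples. These values cannot decide it, since libraries handled together need not share a deviation in rank. Among the 72 regions of the 10 genes, 0 were called under every alternative except array weights, with 1 (Rptor intron), and 0 to 0 when 1 library was left out. The 8 at an unadjusted p under 0.05 became 2 with the 20000 strongest peaks, 4 with ranking by fold enrichment and 5 in gene bodies only, and 6 to 12 when 1 library was left out. Calls among pathway promoters were 2 with windows around summits (Akt2 and Tti1), 2 with normal scores (Mlst8 and Ulk1), 3 with array weights (both of those included) and 0 with all deposited peaks, the 20000 strongest, fold enrichment, no filter, a plain variance model, the block, GC correction and GC correction with the block, and 0 to 0 when 1 library was left out. The 11 lower pathway promoters were 4 with the plain variance model, 7 with GC correction, 4 with GC correction and the block, and 8 to 12 when 1 library was left out. The 102 regions were 33 with the 20000 strongest peaks and 59 in gene bodies only, and the 10 genes with an own promoter in all lists were 5 and 3, because those settings leave out peaks or promoters before the gene. Regions in the lists of one operation only were 1 with the 20000 strongest peaks (Slc9a3r2 promoter) and 0 to 3 when 1 library was left out, where fewer lists must agree. Differences of 6 promoters, none past the threshold, changed sign. For Mtor the difference was −1.76 with fold enrichment, −0.24 with array weights, −0.59 with GC correction with or without the block, and −0.83 (without UNx 3) to 1.72 (without UNx 1) when 1 library was left out. With fold enrichment, Rheb was at −1.71, Rictor at −1.45, Rps6kb1 at −1.27 and Ddit4l at −0.39. Rictor ran from −4.77 (without Sham 1) to 5.13 (without UNx 2) when 1 library was left out, Rps6kb1 was at −0.61 with GC correction with or without the block, and Tsc1 was at 21.3 in the window around its summit. The cause was not tested for any of these. The other 16 of 22 differences followed kept their sign. Depth is unknown, so a region at 0 may be a weak peak below the ranked ones.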
